A study of Mus musculus with 18 samples.

Results

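The 8 genes described here act in glucose output and glycogen storage, out of 22180 genes with a probe of their own, and were followed through livers of male C57BL6 mice given perfluorinated compounds. They were chosen by symbol, as Ppargc1a, Pck1, Fbp1, Pcx, Slc2a2, Gys2, Pygl and Pfkfb3, and each was measured by a single probe. Liver RNA was hybridised to 18 expression arrays, 3 biological replicates in each of 6 groups. The mice ate a high-fat diet (HFD, 45% of energy from fat) or a low-fat diet (LFD, 10%) for 12 weeks, from 6 to 18 weeks of age, and each diet held PFNA (perfluorononanoic acid), PFOS (perfluorooctane sulfonic acid) or neither. The 6 groups were thus HFD with PFNA, HFD with PFOS, HFD control, LFD with PFNA, LFD with PFOS and LFD control. Both compounds are fluorinated surfactants of the same fluorinated chain length, and PFNA ends in a carboxylic acid where PFOS ends in a sulfonic acid. The labels used here give no dose, feeding state or hour of sacrifice.

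In the fasted liver, glucose is made from lactate, amino acids and glycerol, and is also released from glycogen. Glucagon raises cyclic AMP, which through the factor CREB switches on Ppargc1a and Pck1. PGC-1alpha, the product of Ppargc1a, is a coactivator that in turn drives gluconeogenic and mitochondrial genes. Insulin opposes this programme, largely by removing FOXO1 from the nucleus. In mice, activation of the drug-sensing receptor CAR is known to lower the RNA of Pck1.

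The values are array signals on a scale read as log2, and a difference of 1 is then a doubling of signal. All 34472 probes were fitted together with limma, and a difference was called when its p-value, adjusted by Benjamini and Hochberg over all probes, was under 0.05. Errors beside differences are standard errors of that fit, with 3 arrays in each group. The array medians lay between 4.43 and 4.59. The first principal component set LFD PFOS replicate 3 and HFD PFNA replicate 3 apart from their groups and beside the HFD PFOS arrays, so the results below were also computed without both. Both arrays were picked from these same values, so calls gained without them are not independent evidence. Hepatocyte markers were strongly present, with Alb at 13.89 and Ttr at 13.48. The 8 genes had mean signals between the 72.2nd and the 99.5th percentile of all probes.

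Windows at a transcription start of Ppargc1a and of Pck1 are shown because these were the members that passed a test, and because both are textbook targets of CREB. Each window runs from 250 bases before to 50 bases after a transcription start in RefSeq, read 5′ to 3′ on the strand of the gene (GRCm38.p6). For Pck1 it is chr2:173152823-173153122 on the plus strand, and for Ppargc1a it is chr5:51567676-51567975 on the minus strand. The Ppargc1a window lies inside the annotated gene, which runs from 51454249 to 52115853, and not at its outermost start. No other Ppargc1a window was available to search. Capitals mark the CREB-type letters described below.
Pck1: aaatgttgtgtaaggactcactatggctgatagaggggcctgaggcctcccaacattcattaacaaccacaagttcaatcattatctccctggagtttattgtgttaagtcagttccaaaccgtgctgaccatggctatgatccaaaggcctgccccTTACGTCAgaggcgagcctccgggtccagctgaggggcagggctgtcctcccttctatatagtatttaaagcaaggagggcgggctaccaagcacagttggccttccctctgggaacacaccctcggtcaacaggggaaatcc
Ppargc1a: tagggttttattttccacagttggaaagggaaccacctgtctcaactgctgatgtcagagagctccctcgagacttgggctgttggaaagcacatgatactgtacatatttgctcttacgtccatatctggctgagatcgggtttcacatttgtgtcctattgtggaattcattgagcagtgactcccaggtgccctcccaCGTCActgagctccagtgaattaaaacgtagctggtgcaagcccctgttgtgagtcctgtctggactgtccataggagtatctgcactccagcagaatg
The Pck1 window holds TTACGTCA from 93 to 86 bases before the start, the form of the cyclic AMP response element (CRE) described for this gene, which 0.499% of 32851 windows in the table hold on either strand. The Ppargc1a window holds the core of that element, TGACG, on the opposite strand, from 49 to 45 bases before its start. The same core lies inside the Pck1 element, and 20.8% of all windows hold it. Among the 7 members with a window in the table, 4 held the core (Pck1, Pygl, Ppargc1a and Pfkfb3). The 7 members had 9 windows, with extra ones for Pcx and Pfkfb3, while the percentages given here count windows and not genes. None of the 7 held the full palindrome TGACGTCA (1.79% of all windows) or the FOXO letters TGTTTAC (3.65%), searched on both strands. These are matches of letters and not measured sites.

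Ppargc1a was lower in every liver that received a compound. Its signal on the high-fat diet was 7.35, 7.41 and 7.06 with PFNA and 7.10, 7.37 and 7.08 with PFOS, against 7.81, 7.69 and 7.43 in controls. Low-fat livers had 6.40, 6.99 and 6.93 with PFNA and 7.09, 7.40 and 6.68 with PFOS, against 7.64, 7.88 and 8.10 in controls. The highest of the 12 exposed arrays (7.41) was thus just under the lowest of the 6 controls (7.43). Across all probes, 0.319% had all exposed arrays under all controls. From low to high, the group means were 6.77 ± 0.33 (LFD PFNA), 7.06 ± 0.36 (LFD PFOS), 7.18 ± 0.16 (HFD PFOS), 7.27 ± 0.19 (HFD PFNA), 7.64 ± 0.19 (HFD control) and 7.87 ± 0.23 (LFD control; SD, n = 3 each). Neighbours in this order overlapped, apart from HFD PFNA and HFD control. In bulk liver, fewer cells of a type and less RNA per cell cannot be told apart.

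Averaged over both diets, Ppargc1a fell under PFNA by 0.74 on the log2 scale (SE 0.14, limma adjusted p = 0.00849) and under PFOS by 0.64 (SE 0.14, adjusted p = 0.0156). These 2 contrasts use the same controls. They called 2.74% of all probes for PFNA (1.73% higher and 1.02% lower) and 3.72% for PFOS (2.29% higher and 1.43% lower). Both calls held in each of 25 alternative settings, with adjusted p-values between 0.00387 and 0.0251 for PFNA and between 0.00782 and 0.0426 for PFOS. Among the single exposures it passed under PFNA on the low-fat diet, at -1.10 (SE 0.20, limma adjusted p = 0.0163), or 46.7% of the control signal. It was the only member called there, where 0.566% of all probes were called, 0.191% as lower. That call ended without LFD control replicate 2 (adjusted p = 0.0589) or 3 (0.0616), without LFD PFNA replicate 1 (0.0766) or 3 (0.0630), and in a fit to the 2 groups alone (0.0508).

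The other single exposures did not pass for Ppargc1a. The difference was -0.82 (SE 0.20, limma adjusted p = 0.0844) for LFD PFOS, -0.37 (adjusted p = 0.571) for PFNA on the high-fat diet and -0.46 (adjusted p = 0.304) for PFOS on the high-fat diet. In each of them the exposed arrays lay under the controls without overlap. The low-fat difference under PFNA was larger than the high-fat one by 0.73 (SE 0.28), but this interaction did not pass (adjusted p = 0.942), nor did that of PFOS (0.36, SE 0.28, adjusted p = 0.846). The controls of the diets differed by -0.23 (HFD minus LFD, adjusted p = 0.906). In the moderated F test over all 6 groups, which called 0.96% of probes, Ppargc1a was the only member called (adjusted p = 0.045). That call ended for 15 of the 18 arrays left out singly, with a highest adjusted p of 0.112.

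**Figure D1:**
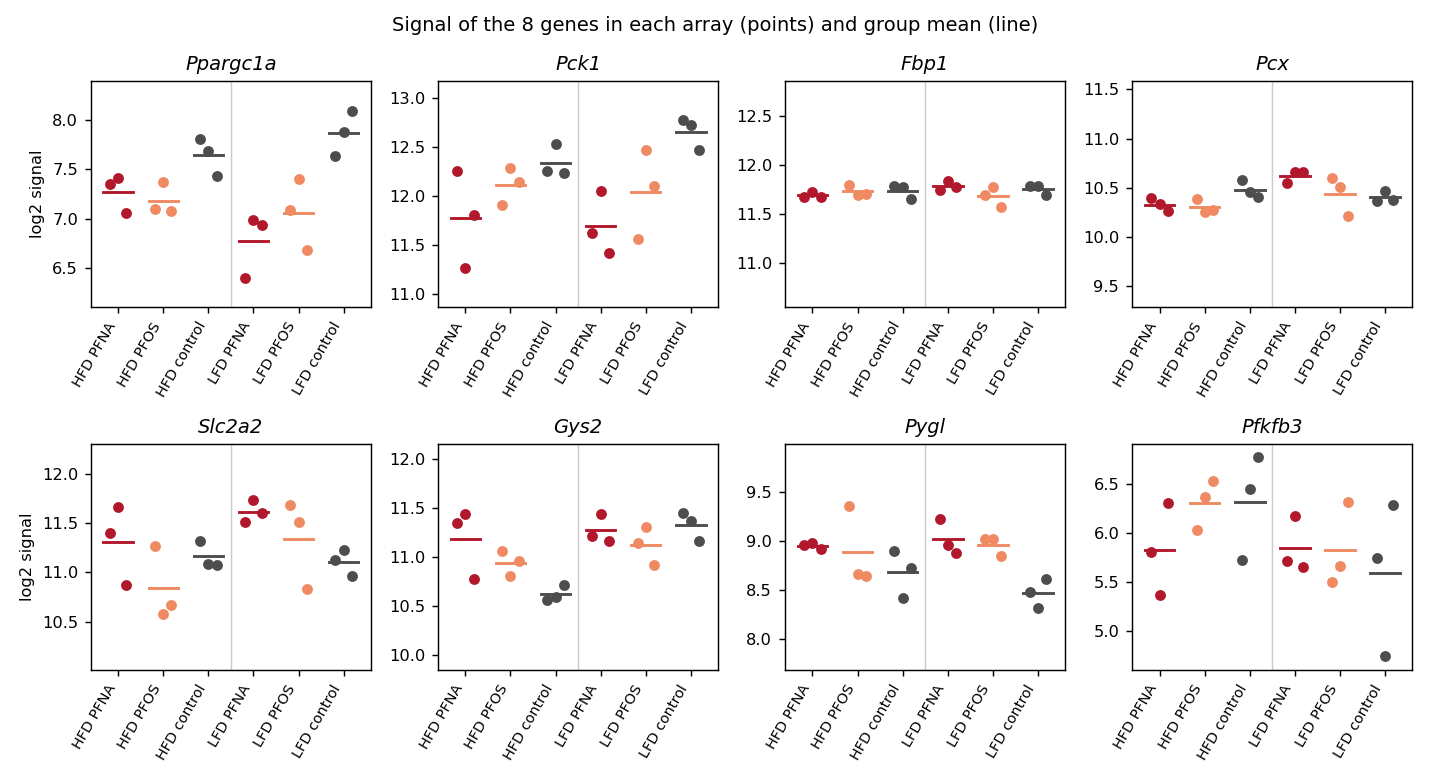
Log2 signal of each of the 8 genes (vertical axis, the same span of 2.3 units in every panel) in each array (points, ordered by replicate number) and group mean (line), with high-fat groups left of low-fat groups. The 12 exposed points of Ppargc1a, at 6.40 to 7.41, sit under its 6 control points, at 7.43 to 8.10, while the 18 points of Fbp1 stay between 11.57 and 11.84.

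Pck1 encodes the cytosolic phosphoenolpyruvate carboxykinase, the committed step of gluconeogenesis, and it was lower with PFNA. On the high-fat diet its signal was 12.25, 11.27 and 11.81 with PFNA and 11.91, 12.28 and 12.14 with PFOS, against 12.25, 12.53 and 12.23 in controls. In low-fat livers Pck1 was 11.62, 12.05 and 11.42 with PFNA and 11.56, 12.47 and 12.10 with PFOS, against 12.77, 12.72 and 12.47 in controls. Only LFD PFNA was free of overlap with its controls, and HFD PFNA replicate 1 was as high as HFD control replicate 1. Averaged over both diets, Pck1 fell under PFNA by 0.76 (SE 0.17, limma adjusted p = 0.0247), and the difference under PFOS was -0.42 (SE 0.17, adjusted p = 0.204). The PFNA call ended without LFD control replicate 1 (adjusted p = 0.0571) or 2 (0.0551), LFD PFNA replicate 1 (0.0577) or 3 (0.0720), HFD control replicate 2 (0.0592) or HFD PFNA replicate 2 (0.0618).

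Within a diet Pck1 did not pass. It differed by -0.96 (SE 0.24, limma adjusted p = 0.0757) for PFNA and -0.61 (adjusted p = 0.316) for PFOS on the low-fat diet, and by -0.56 (adjusted p = 0.463) and -0.23 (adjusted p = 0.758) for the same compounds on the high-fat diet. The interactions with diet were 0.40 for PFNA (SE 0.34, adjusted p = 0.956) and 0.38 for PFOS (SE 0.34, adjusted p = 0.865). Between the diets' controls the difference was -0.32 (SE 0.24, adjusted p = 0.883).

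The other gluconeogenic enzymes among the 8 did not pass any of the 12 contrasts. Fbp1, fructose-1,6-bisphosphatase, had the lowest spread of the members, with a pooled SD within groups of 0.068, and its group means spanned 0.11 over the 6 groups. Its 95% confidence intervals for the effect of each compound on each diet lay between -0.29 and 0.25. Pcx, pyruvate carboxylase, which feeds carbon into the pathway in mitochondria, stood at 10.39, 10.33 and 10.26 with PFNA and 10.38, 10.25 and 10.27 with PFOS on the high-fat diet, against 10.58, 10.46 and 10.40 in controls. Low-fat livers had 10.55, 10.66 and 10.66 with PFNA and 10.60, 10.51 and 10.21 with PFOS, against 10.36, 10.47 and 10.37 in controls. The PFNA arrays were thus under their controls on the high-fat diet (-0.15, SE 0.12, limma adjusted p = 0.723) and over them on the low-fat diet (0.22, SE 0.12, adjusted p = 0.439). The interaction of diet with PFNA was -0.38 (SE 0.16, adjusted p = 0.943).

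Slc2a2 encodes GLUT2, the carrier through which hepatocytes take up and release glucose. High-fat livers read 11.40, 11.67 and 10.87 with PFNA and 11.27, 10.58 and 10.67 with PFOS, against 11.32, 11.09 and 11.08 in controls. In low-fat livers it read 11.51, 11.74 and 11.60 with PFNA and 11.69, 11.51 and 10.83 with PFOS, against 11.13, 11.23 and 10.96 in controls. LFD PFNA lay over its controls without overlap (0.51, SE 0.23, limma adjusted p = 0.349). The lowest replicate of HFD PFNA and of LFD PFOS, replicate 3 in both, was in each case the array set apart by the principal component. Averaged over diets, the PFNA difference was 0.33 (SE 0.16, adjusted p = 0.329). With both of those arrays left out, the F test over the 6 groups called Slc2a2 (adjusted p = 0.0421, against 0.381 with all arrays), along with 4.89% of all probes.

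Gys2, the liver glycogen synthase, was lowest in the high-fat controls. Its high-fat signals were 11.35, 11.44 and 10.78 with PFNA and 11.06, 10.81 and 10.96 with PFOS, against 10.56, 10.59 and 10.72 in controls. Low-fat signals were 11.22, 11.44 and 11.16 with PFNA and 11.14, 11.31 and 10.92 with PFOS, against 11.45, 11.37 and 11.16 in controls. The 3 high-fat controls lay under all other 15 arrays, a pattern that 0.313% of probes had and that was noticed in the values. In order, the means were 10.62 ± 0.09 (HFD control), 10.94 ± 0.13 (HFD PFOS), 11.12 ± 0.20 (LFD PFOS), 11.19 ± 0.36 (HFD PFNA), 11.27 ± 0.15 (LFD PFNA) and 11.33 ± 0.15 (LFD control; SD, n = 3 each). Above the first, neighbours overlapped.

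With all arrays in the fit, 0 of the 12 contrasts passed for Gys2. HFD controls differed from LFD controls by -0.70 (SE 0.16, limma adjusted p = 0.363), in a contrast that called 0.0029% of probes. On the high-fat diet PFNA differed from control by 0.57 (SE 0.16, adjusted p = 0.213) and PFOS by 0.32 (SE 0.16, adjusted p = 0.411). The interactions with diet were 0.62 for PFNA (SE 0.23, adjusted p = 0.942) and 0.52 for PFOS (SE 0.23, adjusted p = 0.763). Without LFD PFOS replicate 3 and HFD PFNA replicate 3, the PFNA difference on the high-fat diet was 0.77 and passed (adjusted p = 0.0207), where 0.429% of probes were called, and the F test, which then called 4.89% of probes, called Gys2 (adjusted p = 0.00957, against 0.132 with all arrays). The F test also called it without HFD PFNA replicate 3 alone (adjusted p = 0.0286).

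Pygl, the liver glycogen phosphorylase, which releases glucose units from glycogen, had higher means with both compounds but did not pass with all arrays and probes. On the low-fat diet its signal was 9.22, 8.96 and 8.88 with PFNA and 9.02, 9.02 and 8.85 with PFOS, against 8.48, 8.32 and 8.61 in controls, so that all 6 exposed arrays lay over all 3 controls, as 4.21% of probes did. On the high-fat diet it was 8.96, 8.98 and 8.92 with PFNA and 9.36, 8.66 and 8.64 with PFOS, against 8.90, 8.42 and 8.73 in controls. The differences were 0.55 (SE 0.18, limma adjusted p = 0.162) for PFNA and 0.49 (SE 0.18, adjusted p = 0.266) for PFOS on the low-fat diet, and 0.27 (adjusted p = 0.669) and 0.20 (adjusted p = 0.686) on the high-fat diet. The last of these rests on HFD PFOS replicate 1, without which it was -0.03. Averaged over diets the difference was 0.41 for PFNA (SE 0.12, adjusted p = 0.0891) and 0.35 for PFOS (SE 0.12, adjusted p = 0.139), and the PFNA value passed without HFD PFOS replicate 1 (adjusted p = 0.0351), which enters the shared variance, and with the probes above the median mean signal alone (0.0442).

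Pfkfb3 makes fructose 2,6-bisphosphate, the signal that favours glycolysis over gluconeogenesis. It was the most variable member, with a pooled SD within groups of 0.49 (97.4th percentile of probes). High-fat livers read 5.81, 5.37 and 6.31 with PFNA and 6.03, 6.37 and 6.53 with PFOS, against 5.73, 6.45 and 6.77 in controls. Low-fat livers read 5.72, 6.17 and 5.66 with PFNA and 5.50, 5.67 and 6.32 with PFOS, against 5.75, 4.75 and 6.29 in controls. All groups compared overlapped, and the largest difference, 0.72 between the diets' controls (SE 0.35, limma adjusted p = 0.775), included LFD control replicate 2 at 4.75. It was 0.30 without that array and 1.07 without LFD control replicate 3. The 95% confidence interval for PFOS against control on the high-fat diet ran from -0.74 to 0.72.

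**Figure D2:**
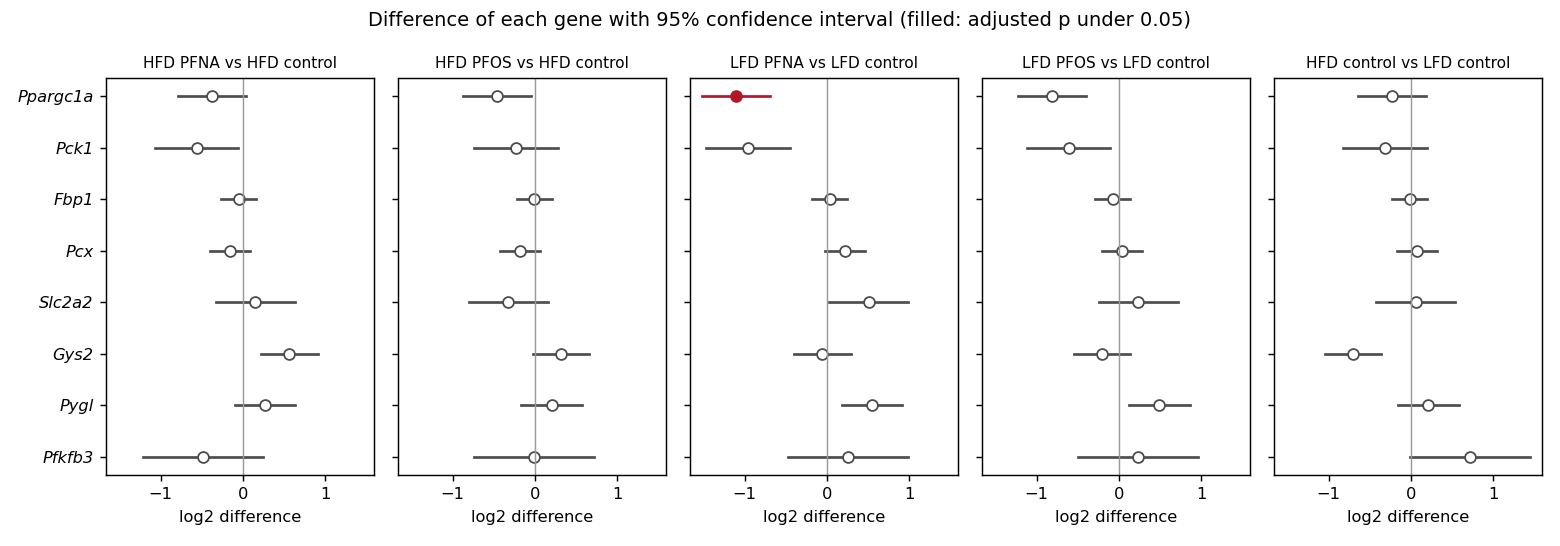
Log2 difference of each gene (points) with its 95% confidence interval (lines) in the 4 exposures and between the diets' controls, filled where the adjusted p was under 0.05. The single filled point is Ppargc1a in LFD PFNA (-1.10), and the intervals of Fbp1 are the narrowest.

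In the direct comparison of the compounds, 0 of the 8 members were called between PFNA and PFOS on either diet, and 0 had an unadjusted limma p under 0.05. The background was 0.0029% of probes on the high-fat diet and 0% on the low-fat diet. Without LFD PFOS replicate 3 and HFD PFNA replicate 3, 1.48% of probes were called between the compounds on the high-fat diet and 0% on the low-fat diet, and 0 of the 8 members on either. HFD PFNA replicate 3 was left out for lying beside the HFD PFOS arrays, so the 1.48% cannot show that the compounds differ. For Ppargc1a the difference, PFNA minus PFOS, was 0.09 on the high-fat diet (95% confidence interval -0.32 to 0.50) and -0.28 on the low-fat diet (-0.70 to 0.13). For Pck1 it was -0.33 (-0.84 to 0.17) on the high-fat diet and -0.35 (-0.85 to 0.16) on the low-fat diet. Slc2a2 had the lowest unadjusted p among the members, at 0.47 on the high-fat diet (-0.01 to 0.95, adjusted p = 0.697, and 0.0811 without those 2 arrays). The carboxylic and the sulfonic acid are therefore not shown to differ in these genes, nor are they shown to act alike. Set against the shared controls and averaged over diets, Ppargc1a passed for both compounds and Pck1 passed for PFNA and not for PFOS, but the difference between the compounds was not called for either gene on either diet. The difference between the compounds averaged over diets, which would match those contrasts, was not computed.

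Counted over the 8 members, 0 of 8 passed for PFNA and 0 of 8 for PFOS on the high-fat diet, where 0.113% and 1.02% of probes were called. At an unadjusted p under 0.05 there were 2 for PFNA (9.77% of all probes) and 1 for PFOS (13.5%). On the low-fat diet 1 of 8 passed for PFNA and 0 of 8 for PFOS, where 0.566% and 0.389% of probes were called. There were 4 for PFNA (12.9% of all probes) and 3 for PFOS (11.9%) at an unadjusted p under 0.05. The shares of probes called moved with single arrays. Leaving out 1 array gave 0.0261% (HFD PFNA replicate 1) to 0.232% (LFD PFOS replicate 3) for HFD PFNA, and 0.177% (HFD PFOS replicate 2) to 1.93% (LFD PFOS replicate 3) for HFD PFOS. It gave 0.0754% (LFD PFNA replicate 3) to 1.01% (LFD PFOS replicate 3) for LFD PFNA, and 0.0638% (LFD PFOS replicate 1) to 0.754% (LFD PFOS replicate 3) for LFD PFOS. The exposed and control arrays did not overlap for 4 members under HFD PFNA (13.7% of all probes), 3 under HFD PFOS (18.4%), 5 under LFD PFNA (19.4%) and 2 under LFD PFOS (15.7%). Between the diets' controls 1 member was free of overlap (10.4%), and between PFNA and PFOS 0 were, on the high-fat diet (10.3%) or the low-fat diet (8.98%). The median difference of the members was -0.10 under HFD PFNA and 0.13 under LFD PFNA, against -0.01 over all probes in both contrasts. For PFOS it was -0.09 on the high-fat diet and -0.02 on the low-fat diet, against -0.01 and -0.02 over all probes. Negative and positive differences numbered 5 and 3 under HFD PFNA, and 6 and 2 under HFD PFOS. They numbered 3 and 5 under LFD PFNA, and 4 and 4 under LFD PFOS. The members thus had no direction common to the 4 exposures.

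The other genes of the pathway came from lists written with earlier results of these data known. Of 20 measured genes of gluconeogenesis and glucose output, 3 rose and 2 fell under PFNA averaged over diets, and 4 rose and 2 fell under PFOS. Over all probes, 1.73% rose and 1.02% fell for PFNA, and 2.29% rose and 1.43% fell for PFOS. At an unadjusted limma p under 0.05 there were 8 of the 20 for PFNA (16% of all probes) and 11 for PFOS (17.2%). Mdh2, the mitochondrial malate dehydrogenase, read 10.41, 10.22 and 10.45 with PFNA and 10.52, 10.57 and 10.70 with PFOS on the high-fat diet, against 9.88, 9.80 and 9.81 in controls. All 12 of its exposed arrays were higher than all 6 controls, since the low-fat values were 10.13 to 10.37 with PFNA and 10.33 to 10.50 with PFOS, against 9.73 to 9.92 in controls. This held for 0.734% of all probes. Mdh2 rose by 0.50 (SE 0.08, limma adjusted p = 0.00288) under PFNA and 0.68 (SE 0.08, adjusted p = 2.20e-04) under PFOS. Mpc1, a subunit of the carrier that brings pyruvate into mitochondria, fell by 0.59 under PFNA (SE 0.10, adjusted p = 0.00411) and by 0.59 under PFOS (adjusted p = 0.0030). These 4 calls held without any single array.

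The list's other calls were less steady. Ldha, the lactate dehydrogenase subunit, fell under PFNA (-0.47, limma adjusted p = 0.0323) and PFOS (-0.46, adjusted p = 0.0285). Tpi1 rose under both (0.31 and 0.29), G6pc3 under PFNA (0.51), and Pgam1 (0.48) and Slc25a10 (0.33) under PFOS. Tpi1 and Slc25a10 were named after their values were seen. Each of these 7 calls ended without at least 3 of the 18 arrays taken singly, with a highest adjusted p of 0.112. G6pc, the glucose 6-phosphatase that completes glucose output, is named for that role, outside the rule for naming genes. It read 11.55, 10.27 and 10.85 with PFNA and 10.27, 11.11 and 11.14 with PFOS on the high-fat diet, against 10.56, 10.95 and 10.23 in controls. Its low-fat signals were 10.83, 10.98 and 10.77 with PFNA and 10.95, 11.66 and 10.89 with PFOS, against 11.47, 11.49 and 10.87 in controls. The largest difference was between the diets' controls, at -0.70 (SE 0.31, adjusted p = 0.766), and PFNA on the low-fat diet differed by -0.42 (adjusted p = 0.623).

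Among 19 measured genes of glycolysis and its switches, 2 rose and 0 fell under PFNA, and 1 rose and 0 fell under PFOS, averaged over diets. The shares of all probes called were 2.74% for PFNA and 3.72% for PFOS. At an unadjusted limma p under 0.05 there were 3 of the 19 for PFNA (16% of all probes) and 4 for PFOS (17.2%). Aldoc, an aldolase, rose by 0.65 (SE 0.14, limma adjusted p = 0.0229) and Pdk2, a kinase that shuts off pyruvate dehydrogenase, by 0.62 (SE 0.16, adjusted p = 0.0472) under PFNA. Pdk4, a related kinase and a PPARA target, rose by 2.39 (SE 0.57, adjusted p = 0.0274) under PFOS. It was 7.24, 6.88 and 10.68 with PFNA and 10.13, 10.45 and 11.21 with PFOS on the high-fat diet, against 7.71, 7.47 and 7.16 in controls. On the low-fat diet LFD PFOS replicate 3, at 10.55, was far over replicates 1 and 2, at 7.81 and 7.45, while LFD PFNA ran from 6.50 to 7.83 and LFD controls from 6.57 to 7.61. So Pdk4 was high in the HFD PFOS arrays and in the pair set apart by the principal component. The calls of Aldoc, Pdk2 and Pdk4 ended without 5, 15 and 6 of the arrays taken singly (highest adjusted p = 0.119).

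Of 23 other glycogen genes measured, 0 passed under PFNA averaged over diets (2.74% of all probes). At an unadjusted limma p under 0.05 there were 4 (16% of all probes). Under PFOS 3 rose and 1 fell (2.29% and 1.43% of all probes). Ppp1r3g, which targets a phosphatase to glycogen, read 6.41, 5.55 and 6.26 with PFOS on the high-fat diet, against 4.82, 4.46 and 4.53 in controls. It rose by 1.47 there (SE 0.24, adjusted p = 0.00935), and this call held without any single array. On the low-fat diet it overlapped, at 4.77, 5.24 and 5.53 with PFOS, against 5.24, 5.47 and 4.95 in controls. Averaged over diets it rose by 0.72 under PFOS (SE 0.17, adjusted p = 0.0279), a call that ended without 8 of the arrays taken singly (highest adjusted p = 0.0699). Ppp1r3c, another such targeting subunit, fell by 0.82 under PFOS averaged over diets (SE 0.19, adjusted p = 0.0257), with LFD PFOS replicate 3 at 5.56 and the other 5 PFOS arrays at 6.09 to 6.76, against 6.92 to 7.27 in the 6 controls. Gyg, glycogenin, rose by 0.52 (adjusted p = 0.0362) and Phkb, a phosphorylase kinase subunit, by 0.42 (adjusted p = 0.0487). The calls of Ppp1r3c, Gyg and Phkb ended without 6, 9 and 15 of the arrays taken singly (highest adjusted p = 0.116).

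Of 39 measured hormone receptors and transcription regulators of glucose output, 1 rose under PFNA averaged over diets, where 2.74% of all probes were called. Under PFOS 2 rose and 1 fell, where 3.72% were called. At an unadjusted limma p under 0.05 there were 13 of the 39 for PFNA (16% of all probes) and 16 for PFOS (17.2%). Srebf1, which drives lipogenesis, rose by 0.85 (SE 0.17, limma adjusted p = 0.0120) under PFNA and 1.08 (SE 0.17, adjusted p = 0.00211) under PFOS. Trib3, an inhibitor of AKT signalling, rose by 0.74 under PFOS (SE 0.14, adjusted p = 0.00781). These 3 calls held without any single array. Hnf4a, a hepatocyte factor that works with PGC-1alpha on Pck1, fell by 0.47 under PFOS (SE 0.12, adjusted p = 0.0395), a call that ended without 12 of the arrays taken singly (highest adjusted p = 0.0932). Of 11 other sugar carriers of the Slc2a family, 2 rose under PFNA averaged over diets (1.73% of all probes). These were the fructose carrier Slc2a5 (1.08, SE 0.25, adjusted p = 0.0305) and the urate carrier Slc2a9 (0.55, SE 0.12, adjusted p = 0.0199). Both calls ended without several single arrays (highest adjusted p = 0.0789). None passed under PFOS (3.72% of all probes), with 2 at an unadjusted limma p under 0.05 (17.2% of all probes). Of 16 clock genes, 0 were called in any of the 12 contrasts. Averaged over diets, 5 had an unadjusted limma p under 0.05 for PFNA (16% of all probes) and 4 for PFOS (17.2%).

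**Figure D3:**
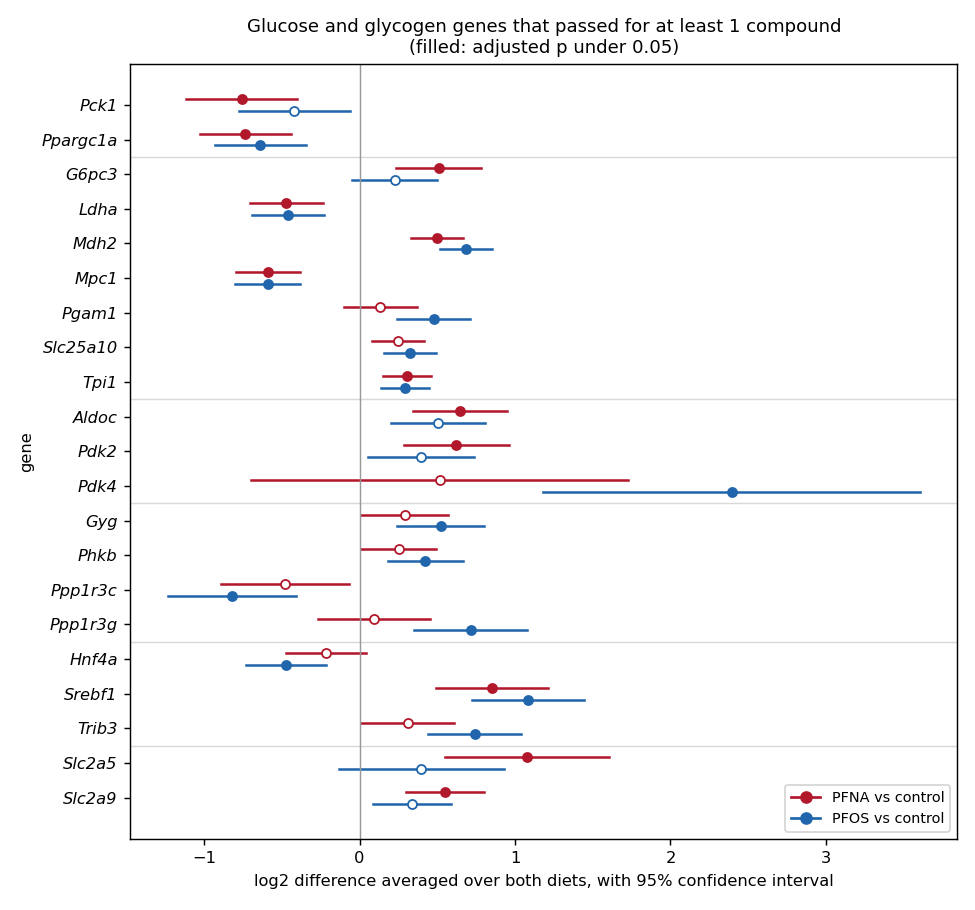
Log2 difference (points) with 95% confidence interval (lines) for PFNA and for PFOS against control, averaged over both diets, for the 21 genes of the members and pathway lists that passed for at least 1 compound, filled where the adjusted p was under 0.05. Ppargc1a (-0.74 and -0.64), Mpc1, Ldha, Mdh2, Tpi1 and Srebf1 are filled for both compounds, and Pdk4 (2.39 under PFOS) has the widest intervals.

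Markers of receptor activity were compared in the same arrays. Cyp2b10, the standard target of CAR, was 7.70 to 10.63 with PFNA and 7.26 to 9.28 with PFOS on the high-fat diet, against 3.88 to 4.49 in controls. On the low-fat diet it was 9.44 to 10.34 with PFNA and 7.94 to 10.63 with PFOS, against 3.81 to 4.58 in controls. No fold is given, since its control signals were close to the array medians. Cyp4a14, a PPARA target, was 13.16 to 13.45 with PFNA and 13.39 to 13.52 with PFOS on the high-fat diet, against 12.58 to 12.79 in controls. Its low-fat arrays overlapped, at 13.02 to 13.21 with PFNA and 13.02 to 13.46 with PFOS, against 12.86 to 13.11 in controls. Of the 4 markers (Cyp2b10, Gadd45b, Cyp4a14 and Acot1), 1 was called under HFD PFNA, 3 under HFD PFOS, 1 under LFD PFNA and 1 under LFD PFOS. Gadd45b, which CAR induces in mouse liver, rose by 1.29 under PFOS (SE 0.24, limma adjusted p = 0.00629). Acot1, another PPARA target, rose by 1.86 under PFOS (SE 0.26, adjusted p = 9.57e-04) and by 1.11 under PFNA (adjusted p = 0.0320, lost without 8 of the arrays taken singly, with a highest adjusted p of 0.0753). The part of CAR or PPARA in the values of Ppargc1a and Pck1 was not tested.

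Of the endothelial, Kupffer cell and hepatocyte markers, 0 were called in the F test or for either compound within a diet. In the array means of 7 endothelial markers, LFD PFNA ran from 8.71 to 8.77 and LFD PFOS from 8.44 to 8.80, against 7.97 to 8.44 in LFD controls. High-fat arrays overlapped, from 8.19 to 8.75 in HFD PFNA and 8.24 to 8.57 in HFD PFOS, against 8.11 to 8.53 in HFD controls. The 7 Kupffer cell markers ran from 7.75 to 8.16 in LFD PFNA and 7.47 to 8.16 in LFD PFOS, against 6.94 to 7.65 in LFD controls. They ran from 7.33 to 7.58 in HFD PFNA and 7.20 to 7.61 in HFD PFOS, against 6.71 to 7.86 in HFD controls. The 6 measured hepatocyte markers ran from 11.91 to 12.18 in HFD PFNA and 11.88 to 11.96 in HFD PFOS, against 12.12 to 12.26 in HFD controls, and from 12.16 to 12.24 in LFD PFNA and 11.96 to 12.16 in LFD PFOS, against 12.22 to 12.29 in LFD controls. All measured members of these 3 lists lay over the median probe in signal. Of them, Oit3, an endothelial marker, rose under PFNA averaged over diets, and Apoa1 and Hnf4a, both hepatocyte markers, fell under PFOS. The 7 other lists (stellate cell, lymphocyte, cholangiocyte, adipocyte, exocrine pancreas, skeletal muscle and kidney tubule) had 0 genes called for either compound averaged over diets, with 1 gene at most in each at an unadjusted limma p under 0.05. For PFNA on the low-fat diet, 6 of 7 endothelial and 4 of 7 Kupffer cell markers had an unadjusted limma p under 0.05 (12.9% of all probes). So did 3 of 6 lymphocyte, 2 of 4 skeletal muscle and 1 of 4 kidney tubule markers, but 0 of 6 hepatocyte and 0 of 7 stellate cell markers. The skeletal muscle list reached a mean of 6.11 in 1 LFD PFNA array, against 4.35 to 4.66 in LFD controls. The part of these levels in the results was not tested.

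The genes whose profile was most like that of the called members were found over 19396 other named genes, by the mean absolute difference between centred log2 signals over the 18 arrays. For Ppargc1a these were Sftpa1 (0.16) and Fyco1 (0.20), where the profile of Ppargc1a itself deviated from its mean by 0.34 on average. For Pck1 they were Shb (0.18) and Foxn3 (0.20), with a mean deviation of 0.34.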

How the data were processed

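Expression arrays of mouse liver were deposited by the authors as 1 value per probe and array. The deposited values are read here as log2 signal, since their range fits that scale and the labels name no base. The submitters' processing notes name Transcriptome Analysis Console; they give no version, and no source used here describes the background correction or normalization. Probes were named through the platform annotation, where 23521 of 34472 had 1 gene symbol, 1814 several and 9137 none. The deposited values were used without further normalization. limma 3.58.1 (R 4.3.3) fitted 1 mean per group to all 18 arrays, with 12 contrasts and a moderated F test, and Benjamini-Hochberg adjustment over all probes at 0.05. The number of arrays limits the precision. On simulated data, 98.4% of 200 probes changed 4-fold between LFD PFNA and LFD control were recovered (34472 probes), with a mean of 11.8 false calls. The largest member difference was -1.10 on the log2 scale. Changes of that size or smaller were not simulated, so the simulation does not show how many would be missed. All 8 members are named, with up to 4 called genes of each list in each contrast (the largest differences; up to 2 where none was called), and the 2 profiles nearest to each called member. The members and lists were chosen with earlier results of these data known. The labels do not say whether replicate numbers pair animals, so the main fit used no block. Of 45 same-number pairs of arrays, 3 had deviations correlated above 0.1 (median -0.00119, highest 0.421). Of 90 different-number pairs, 2 did (median 0.00532, highest 0.224). Promoter windows came from RefSeq.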

Additional observations from a re-analysis of the deposited data

Results flagged for a closer look

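Pcx was singled out because its PFNA arrays lay on opposite sides of their controls in the diets. PFNA differed from control by -0.153 on the high-fat diet, with 3 of 3 arrays under all controls, and by 0.22 on the low-fat diet, with 3 of 3 over all controls. The groups did not overlap, in either direction, for 13.7% and 19.4% of all probes. On the high-fat diet the highest PFNA array read 10.39 and the lowest control 10.40. The interaction of diet with PFNA was -0.38 (SE 0.16, limma adjusted p = 0.943), so the difference between the diets did not pass.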

How the results depend on the processing

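With the 17234 probes above the median mean signal alone, 2 members were called for PFNA and 1 for PFOS on the low-fat diet, against 1 and 0 with all probes, while the share of probes called was 3.43% and 1.57%, against 0.566% and 0.389%. For PFNA averaged over diets 3 members were called, with Pygl (9.08% of probes, against 2.74%). In fits to the compared groups alone, 0 were called for PFNA on the low-fat diet. Leaving out each array in turn gave 0 to 1 members for PFNA on the low-fat diet, 1 to 3 for PFNA averaged over diets (2 with all arrays, and 3, with Pygl, without HFD PFOS replicate 1), and 0 to 2 in the F test (1 with all arrays). The shares of probes called were 0.0754% to 1.01%, 1.36% to 3.29% and 0.464% to 2.78%. With array medians subtracted the F test called 0 members, with Ppargc1a at adjusted p = 0.0547. It then called 444 probes, against 331 in the main fit. Without LFD PFOS replicate 3 and HFD PFNA replicate 3 together, 1 member was called for PFNA on the high-fat diet (Gys2, against 0; 0.429% of probes, against 0.113%), 3 for PFNA averaged over diets (with Gys2, adjusted p = 0.0396; 4.13% of probes) and 3 in the F test (Ppargc1a, Gys2 and Slc2a2; 4.89% of probes, against 0.96%). The difference of Pygl for PFOS on the high-fat diet ranged from -0.0333, without HFD PFOS replicate 1, to 0.33. The cause of these changes was not tested. The arrays left out together were picked from these same values, so calls gained without them are not independent evidence. Over all differences recomputed, those above included, for members and listed genes together, 1914 kept their direction and side of the threshold, 229 kept the direction and lost the call, 6 gained one and 1 reversed (Pygl). The listed genes entered, apart from G6pc, were those already called with all arrays and probes. They could therefore lose a call but not gain one, and these counts do not compare members with listed genes. Averaging the probes of a gene was not run, since each member had 1 probe.

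With the replicate number as a block, the members called stayed at 1 for PFNA on the low-fat diet, 2 for PFNA and 1 for PFOS averaged over diets and 1 in the F test, and 0 in the other contrasts. The labels do not say whether these numbers pair animals.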
